A study of Mus musculus with 8 samples.

Results

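The ephrin, semaphorin, Slit and netrin guidance genes were selected by symbol: ephrins (Efna, Efnb) and Eph receptors (Epha, Ephb), semaphorins of classes 3 to 7, plexins, the neuropilins Nrp1 and Nrp2, Slits and Robos, netrins and the Unc5 receptors, Dcc and Neo1. The names gave 70 genes of the 26608 gene symbols counted, 35 of them ligands and 35 receptors. Their levels were compared between 4 neural tube protrusions and 4 samples of open neural tube with normal morphology, all laser-microdissected from FVB mouse embryos of diabetic dams on gestation day 8.5. Protrusion 1 was a separated protrusion and protrusions 2, 3 and 4 were attached ones, while open neural tubes 9, 10, 13 and 14 came from sections just anterior of closure site 1, where the neural folds first meet. Maternal diabetes was common to both groups, and embryos of nondiabetic dams are not analysed here. Nothing in the labels ties libraries to separate embryos or litters, and the first part of the title is common to protrusions 1 and 2. The spread behind each p-value is therefore that of these libraries and may in part be technical.

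Guidance cues are secreted or membrane-bound proteins that steer axons and migrating cells and sort neighbouring cell populations. Ephrins signal at cell contacts through Eph receptor kinases, class 3 semaphorins act through plexins with neuropilins as coreceptors, Slits act through Robo receptors, and netrins through Dcc, neogenin and the Unc5 receptors. In the early embryo Eph and ephrin genes are known for boundary formation in the hindbrain and somites, and members of several of these families are needed for neural fold closure in mice.

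SAGE counts a short tag beside a CATG site near the 3′ end of a transcript, so a gene's level does not grow with the length of its transcript. Counts were scaled to the total of their library and are given as CPM, reads per 1000000 reads. The tag at the CATG site nearest the transcript end is shown for 7 members whose levels the comparisons below turn on: 3 Eph receptors, a class 3 and a class 4 semaphorin and 2 Robo receptors. Each was read from GENCODE M21 transcripts (GRCm38) on the sense strand, 5′ to 3′, with the CATG site in capitals. The sources used here do not give which tags were counted for a gene.
Epha1: CATGgagtgtgtgctggagctgacgg
Epha4: CATGaactttaggtacacataactta
Epha7: CATGgggaacttggggcgaaatatgc
Sema3a: CATGtattcagttgctaaatacacat
Sema4d: CATGatctaccattcggtgtaaacat
Robo1: CATGtaagaaacctctttatttttag
Robo2: CATGtttatacactttttaaataaaa
All 70 members had such a tag in the transcript chosen for each. None of these 70 tags lay beside a CATG site in a transcript of another gene. Other transcripts of some members, among them Epha4, Epha7, Sema3a and Robo2, had a different tag nearest their end, which was not checked. The exons of 13 members overlapped those of another gene, among them Epha1, Efna4, Nrp1, Plxna1, Plxnb1 and Unc5c. The Epha1 site lay 390 bases from the transcript end, and its exons overlapped those of Zyx on the opposite strand.

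The protrusion libraries held 6112477 to 11430602 reads and the open neural tube libraries 5668054 to 16655583. A level of 3 reads, taken as the floor, stood for 0.180 to 0.529 CPM. Protrusion libraries were more complete: the 3280 genes averaging 5 to 20 CPM included 0.0915% to 0.549% without a read in protrusions, against 4.85% to 18.8% in open neural tubes. Members with at least 1 read numbered 59, 62, 66 and 63 in protrusions 1 to 4, against 49, 45, 47 and 42 in open neural tubes 9, 10, 13 and 14. A level of 0 in open neural tube therefore says less than a level of 0 in a protrusion. Some libraries stood apart by their marker genes. Open neural tube 13 had a summed level of 6 neural plate markers of 98.3 CPM, against 626 to 915 CPM in the other open neural tubes, and a summed level of 6 endothelial markers of 164 CPM, against 7.5 to 45.8 CPM. Protrusion 1 had 145 CPM of 6 primitive streak and axial progenitor markers, against 660 to 1027 CPM in attached protrusions and 2.96 to 25.9 CPM in open neural tubes. Its neural plate sum, 876 CPM, lay above those of attached protrusions, 312 to 546 CPM, and Sox2 gave 583 CPM of it. Sox3 went the other way, at 0 in protrusion 1 and 24.0, 50.6 and 35.5 CPM in protrusions 2, 3 and 4. Every other marker of that list was higher in protrusion 1 than in attached protrusions. Of the streak markers, 5 of 6 were higher in all 4 protrusions than in all 4 open neural tubes. The same held for 8.84% of all genes tested below. Nkx1-2 and Mixl1 were at 0 in all open neural tubes. In protrusion 1 Nkx1-2, Fgf8 and Mixl1 had 0.491, 0.491 and 0.654 CPM, at or near its floor of 0.491 CPM. Of the 6 markers 3 were tested below and 1 passed the threshold given there. Paraxial mesoderm markers summed to 345 to 1117 CPM in protrusions and 84.5 to 628 CPM in open neural tubes, with Msgn1 at 0 in protrusion 1 and in every open neural tube. Of them Tbx6 alone did not overlap, at 26.5, 158, 285 and 284 CPM in protrusions 1 to 4, against 0.180 to 1.38 CPM in open neural tubes. Of this list 5 were tested below and 1 passed the threshold. The part of tissue composition in the results below was not tested.

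At the level of whole families, the semaphorins stood higher in protrusions, Eph receptors stood above 3 of the 4 open neural tubes in every protrusion, and the other families overlapped between the tissues. The 20 semaphorins together had 457, 578, 598 and 661 CPM in protrusions 1 to 4, against 199, 197, 206 and 282 CPM in open neural tubes 9, 10, 13 and 14. The groups did not overlap, and their means were 574 ± 85.0 CPM in the protrusions, against 221 ± 40.7 CPM in open neural tubes (SD, n = 4 each). Without Sema6a the semaphorins had 226 to 454 CPM in protrusions, against 155 to 254 CPM in open neural tubes, so that protrusion 3 lay within the range of the open neural tubes. The 14 Eph receptors had 187, 337, 739 and 365 CPM in protrusions, against 95.0, 72.5, 298 and 86.6 CPM in open neural tubes. Open neural tube 13 lay above protrusion 1, so the groups overlapped, and the other open neural tubes lay below every protrusion. The mean of the open neural tubes was 138 CPM, and 84.7 CPM without number 13. The 8 ephrins had 217 to 341 CPM in protrusions, against 294 to 437 CPM in open neural tubes.

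Plexins averaged 332 ± 46.5 CPM in the protrusions, against 406 ± 132 CPM in open neural tubes. Neuropilins averaged 26.4 ± 19.2 CPM in the protrusions, against 101 ± 120 CPM in open neural tubes, where open neural tube 13 alone had 281 CPM. The means were 16.9 CPM without protrusion 1 and 41.2 CPM without open neural tube 13. Robos averaged 34.0 ± 18.4 CPM in the protrusions, against 102 ± 60.02 CPM in open neural tubes. These 3 receptor families all overlapped between the groups. Slits averaged 19.5 ± 10.6 CPM in the protrusions and 20.97 ± 17.8 CPM in open neural tubes, and netrins 118 ± 43.4 CPM in the protrusions, against 134 ± 31.0 CPM in open neural tubes. The 6 netrin receptors had 166 to 247 CPM in protrusions, against 222 to 507 CPM in open neural tubes.

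**Figure D1:**
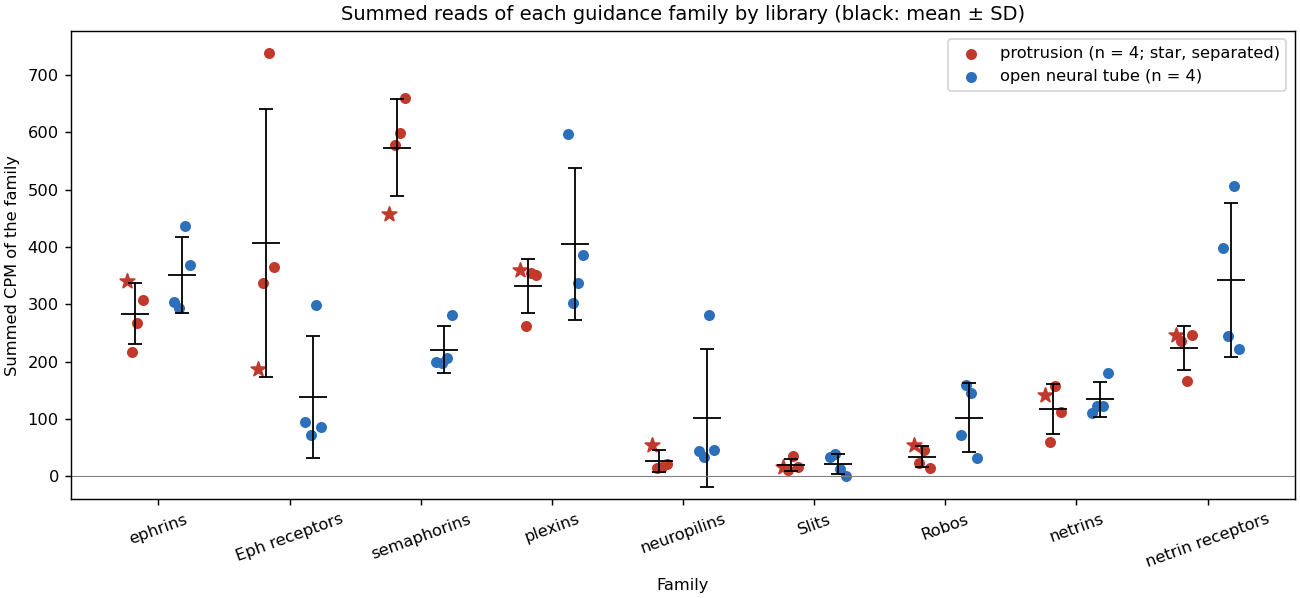
Summed level of each guidance family in CPM by library, with 1 point per library, the separated protrusion as a star, and the mean and SD of 4 libraries per group. Semaphorins lay at 457 to 661 CPM in protrusions, against 197 to 282 CPM in open neural tubes, and the Eph receptor point of open neural tube 13, at 298 CPM, lay within the range of the protrusions.

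Set against each other, ligands and receptors showed separate ranges for the ligand sums and overlapping ones for the receptor sums. All 35 ligands summed to 865 to 1096 CPM in protrusions, against 648 to 830 CPM in open neural tubes, without overlap, while all 35 receptors summed to 873 to 1320 CPM in protrusions, against 773 to 1568 CPM in open neural tubes. Without Sema6a the ligand sums overlapped, at 686 to 889 CPM in protrusions, against 627 to 802 CPM in open neural tubes. The ratio of semaphorin to plexin tags was 1.27 to 2.20 in protrusions and 0.334 to 0.730 in open neural tubes. Plexin tags thus outnumbered semaphorin tags only in open neural tubes among these 8 libraries, but this rested on Sema6a. Without it protrusion 3 had 226 CPM of semaphorins against 354 CPM of plexins. Protrusions 1, 2 and 4 then had 361.4, 437 and 454 CPM of semaphorins, against 360.6, 263 and 351 CPM of plexins. The ratio of ephrin to Eph receptor tags ran the other way, at 0.363 to 1.82 in protrusions and 1.47 to 4.26 in open neural tubes, where the separated protrusion (1.82) and open neural tube 13 (1.47) made the groups overlap. The Slit to Robo and netrin to netrin receptor ratios overlapped between the groups, at 0.305 to 1.09 and 0.249 to 0.949 in protrusions and 0 to 0.464 and 0.241 to 0.808 in open neural tubes. Sums over a chosen list were given no test.

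Gene by gene, the 2 tissues were compared with edgeR's quasi-likelihood F test over all 11036 genes that passed the low-count filter, with an adjusted p of 0.05 as the threshold. A log2 fold change is protrusion over open neural tube throughout. The filter kept 50 members, 26 ligands and 24 receptors, and left out 20, which had mean levels of at most 2.57 CPM over the 8 libraries. Of the 50 tested members 2 passed the threshold, Epha1 and Sema6a, and both were higher in protrusions. Over all genes tested 0.607% passed in either direction and 0.281% passed with a higher level in protrusions. In 10 tested members all 4 protrusions lay above all 4 open neural tubes and in 1, Robo2, all lay below, against 8.84% and 4.55% of all genes tested. An unadjusted p under 0.05 was reached by 16 members, 7 higher and 9 lower in protrusions, and by 15.3% of all genes tested. The log2 fold change was above 0 in 24 members and below 0 in 26, with a median of -0.05. Over all genes tested 53.7% were above 0, with a median of 0.08. By role, the median was -0.06 in 26 ligands and 0.15 in 24 receptors. Robo4 was at 0 in every open neural tube. These medians were the same with Robo4 set to its protrusion mean over the highest open neural tube floor. In tissue samples such as these, fewer cells of a type and less RNA per cell cannot be told apart.

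**Figure D2:**
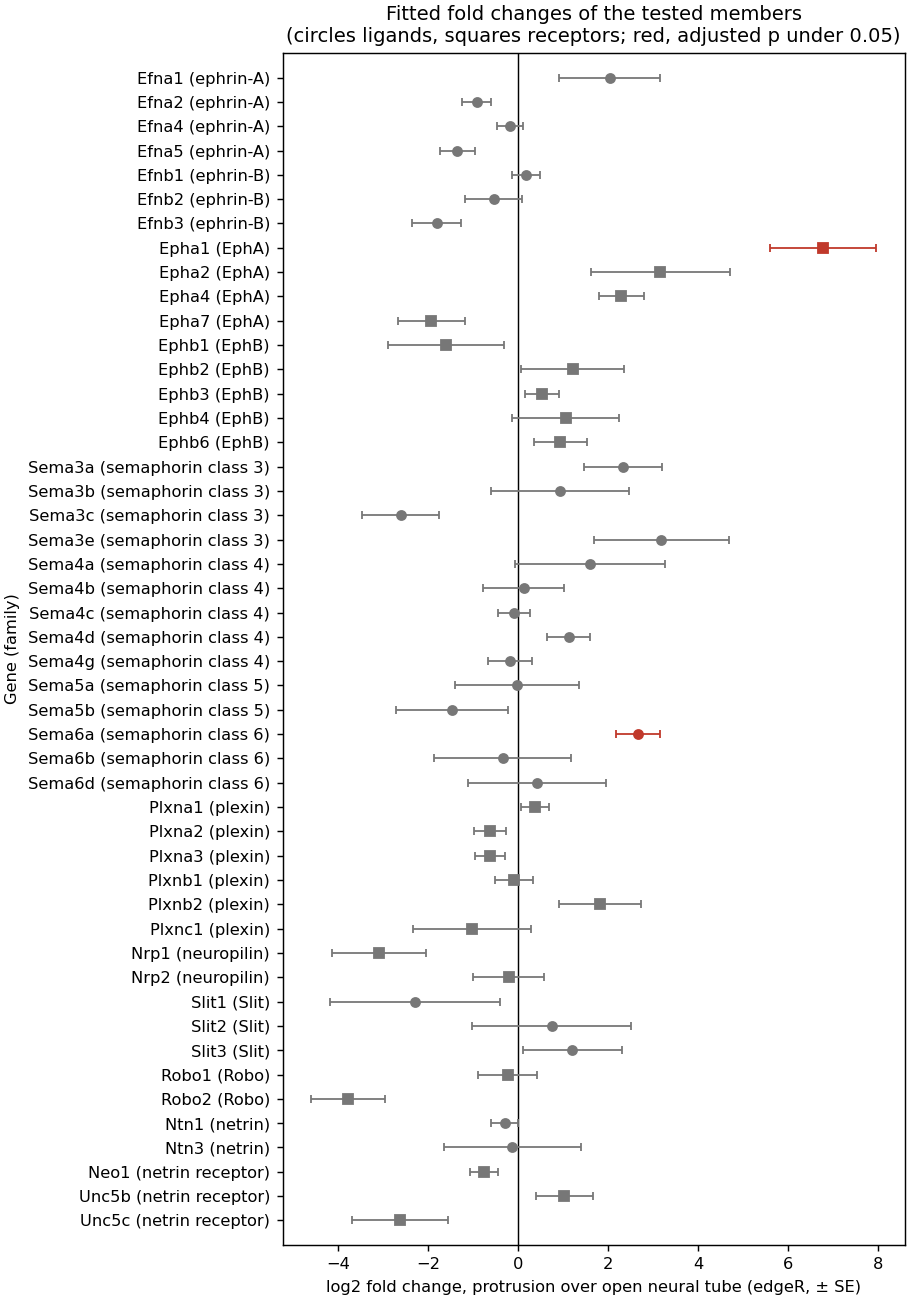
Log2 fold change of protrusion over open neural tube with its SE for tested members, by family, with Epha1 and Sema6a, which passed the threshold, in red. Robo4 and Epha5 are not drawn, because their open neural tubes held 0 reads and 1 read in all; most Eph receptors stand above 0, and most ephrins, plexins and neuropilins stand below it.

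The calls for Epha1 and Sema6a depended on the libraries in the fit. Both stayed past the threshold in edgeR fits without protrusion 1 (adjusted p = 0.0163 for Epha1 and 0.0338 for Sema6a) and without open neural tube 13 (0.0435 and 0.0427), and without both of these libraries (0.00701 and 0.0188). Leaving out protrusion 2, 3 or 4 or open neural tube 9, 10 or 14 ended both calls, with edgeR adjusted p from 0.0652 to 0.138. Over all genes the number past the threshold, 67 with every library, was 172 without protrusion 1, 52 without open neural tube 13 and between 1 and 22 without any other library.

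Among the ephrins, the ligands of Eph receptors, 0 of 7 tested members passed edgeR's threshold. An unadjusted edgeR p under 0.05 was reached by 3, all lower in protrusions, and by 15.3% of all genes tested. DESeq2 passed Efna5 and Efnb3, among 795 genes in all, and limma-voom passed Efna5, among 189. The ephrin-A ligands are held to the membrane by a lipid anchor. Efna4 was the most abundant of them, with 100, 101, 72.6 and 131 CPM in protrusions 1 to 4, against 92.6, 73.6, 150 and 116 CPM in open neural tubes 9, 10, 13 and 14. The groups overlapped widely, and the log2 fold change was -0.18 ± 0.29 (SE, edgeR adjusted p = 0.832). Efna5, whose loss in mice leaves some embryos with cranial neural tube defects, had 55.6, 18.2, 26.9 and 21.1 CPM in protrusions, against 71.3, 54.5, 70.2 and 94.7 CPM in open neural tubes. The 3 attached protrusions lay below every open neural tube and the separated protrusion lay just above the lowest of them, with a log2 fold change of -1.35 ± 0.38 (SE, edgeR adjusted p = 0.110). Without protrusion 1 Efna5 passed the threshold.

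Efna1, a ligand of Epha1 and Epha2 among others, had 25.0, 26.4, 40.2 and 50.8 CPM in protrusions, against 1.28, 7.94, 22.8 and 0 CPM in open neural tubes. Every protrusion lay above every open neural tube, but the open neural tubes were widely spread and the log2 fold change of 2.04 ± 1.12 did not pass (SE, edgeR adjusted p = 0.445). Without open neural tube 13 it was 3.54 and did not pass either. Efna2 averaged 27.4 ± 9.17 CPM in the protrusions and 48.6 ± 11.2 CPM in open neural tubes, and Efna3 stayed under 1.5 CPM in every library.

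The ephrin-B ligands span the membrane and can signal into the cell that carries them. Efnb2 had 80.7, 14.6, 33.4 and 42.1 CPM in protrusions, against 52.3, 13.6, 114 and 49.5 CPM in open neural tubes, with wide overlap (log2 fold change -0.54 ± 0.63, SE, edgeR adjusted p = 0.768; 0.0844 without open neural tube 13). Efnb3 had 11.0, 7.31, 4.37 and 6.13 CPM in protrusions, against 25.8, 38.3, 9.97 and 22.8 CPM in open neural tubes. Only open neural tube 13 reached down to the protrusions, and the log2 fold change was -1.81 ± 0.54 (SE, edgeR adjusted p = 0.123). Efnb1 was close in both tissues, at 38.6 ± 13.01 CPM in the protrusions and 31.8 ± 8.86 CPM in open neural tubes (SD, n = 4 each).

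Of the Eph receptors, the kinases that ephrins bind, 8 of 10 tested members had a log2 fold change above 0, against 53.7% of all genes tested. Their median was 1.13, against 0.08 over all genes tested, and 1 passed the threshold, against 0.607%. Epha1 had 11.6, 119, 395 and 96.8 CPM in protrusions 1 to 4, against 0.198, 0.882, 3.24 and 0.239 CPM in open neural tubes 9, 10, 13 and 14. Every protrusion lay above every open neural tube, the separated one being the lowest of the 4. Epha1 tags rose by 6.79 ± 1.18 on the log2 scale (SE, edgeR adjusted p = 0.0438), a ratio of means of 136. The log2 value was 5.95 without protrusion 3 and 8.48 without open neural tube 13. The Epha1 gene overlaps Zyx, which codes for the focal adhesion protein zyxin on the opposite strand, and the sources used here do not give whether counting used strand, so reads from the 2 genes cannot be told apart. Zyx had 55.3, 278, 335 and 189 CPM in protrusions, against 25.2, 16.8, 41.9 and 34.4 CPM in open neural tubes, and rose by 2.73 ± 0.51 on the log2 scale (SE, edgeR adjusted p = 0.0477). The ratio of Epha1 to Zyx counts was 0.210 to 1.18 in protrusions and 0.00694 to 0.0775 in open neural tubes. The part of Zyx reads in the Epha1 counts was not tested.

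Epha4 binds ephrins of both classes and takes part in hindbrain and somite boundaries. It had 63.0, 84.6, 120 and 89.5 CPM in protrusions, against 7.5, 6.35, 29.2 and 23.5 CPM in open neural tubes. The lowest protrusion lay well above the highest open neural tube, and the log2 fold change of 2.30 ± 0.51 lay just outside the threshold (SE, edgeR adjusted p = 0.0723). Epha4 passed it in 4 of 15 alternative fits. Epha5 had 4.91, 19.4, 3.06 and 26.9 CPM in protrusions, against 0, 0.176, 0 and 0 CPM in open neural tubes. These stood for 424 reads in the 4 protrusions and 1 read in the 4 open neural tubes, a ratio of pooled rates of 527 with an exact 95% interval of 94.1 to 20870 that covers counting error only. Its edgeR adjusted p was 0.0505, and it passed in 5 of 14 alternative fits, among them the one without protrusion 1.

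Epha7 and Ephb1 had log2 fold changes below 0. Epha7 had 29.4, 9.32, 6.47 and 6.61 CPM in protrusions, against 27.8, 15.3, 115 and 24.9 CPM in open neural tubes. The attached protrusions lay below every open neural tube and the separated protrusion lay among them, with a log2 fold change of -1.93 ± 0.75 (SE, edgeR adjusted p = 0.244). As a share of all EphA tags, Epha1 made up 10.4% to 74.0% in protrusions and 0.470% to 3.88% in open neural tubes, whereas Epha7 made up 1.21% to 26.4% in protrusions and 49.1% to 78.3% in open neural tubes. The leading EphA receptor tag thus was Epha1 or Epha4 in each protrusion and Epha7 in each open neural tube. Of the other EphA receptors, Epha2 averaged 6.91 ± 4.19 CPM in the protrusions and 0.702 ± 1.01 CPM in open neural tubes. Epha8 had 0.240 to 1.15 CPM in the protrusions and 0 CPM in open neural tubes and was not tested. Epha3 and Epha6 stayed under the floor in every library, and Epha10 had no read.

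Of the EphB receptors, the main partners of ephrin-B ligands, 4 of 5 had a log2 fold change above 0, against 53.7% of all genes tested. Of these receptors 0 passed by edgeR, DESeq2 or limma-voom, and 0 had an unadjusted edgeR p under 0.05. Ephb6, which lacks kinase activity, had 12.8, 14.6, 16.4 and 11.4 CPM in protrusions, against 8.49, 6.0, 9.31 and 2.98 CPM in open neural tubes. The groups did not overlap, with a log2 fold change of 0.94 ± 0.59 (SE, edgeR adjusted p = 0.514). Ephb4, the receptor through which venous endothelium receives ephrin-B2, had 12.4, 16.6, 138 and 64.7 CPM in protrusions, against 7.60, 0.353, 83.2 and 6.68 CPM in open neural tubes. Open neural tube 13, the library with 164 CPM of endothelial markers, was the high one of its group. Protrusions 1 to 4 had 34.2, 1.29, 2.36 and 3.25 CPM of those markers. The part of endothelial cells in the Ephb4 levels was not tested. The log2 fold change of Ephb4 was 1.05 ± 1.19 (SE, edgeR adjusted p = 0.758), and it was 3.42 without open neural tube 13 and 0.33 without protrusion 3. Ephb3 averaged 40.8 ± 11.1 CPM in the protrusions and 26.6 ± 10.1 CPM in open neural tubes, and Ephb1 and Ephb2 had levels of at most 24.7 CPM in any library.

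**Figure D3:**
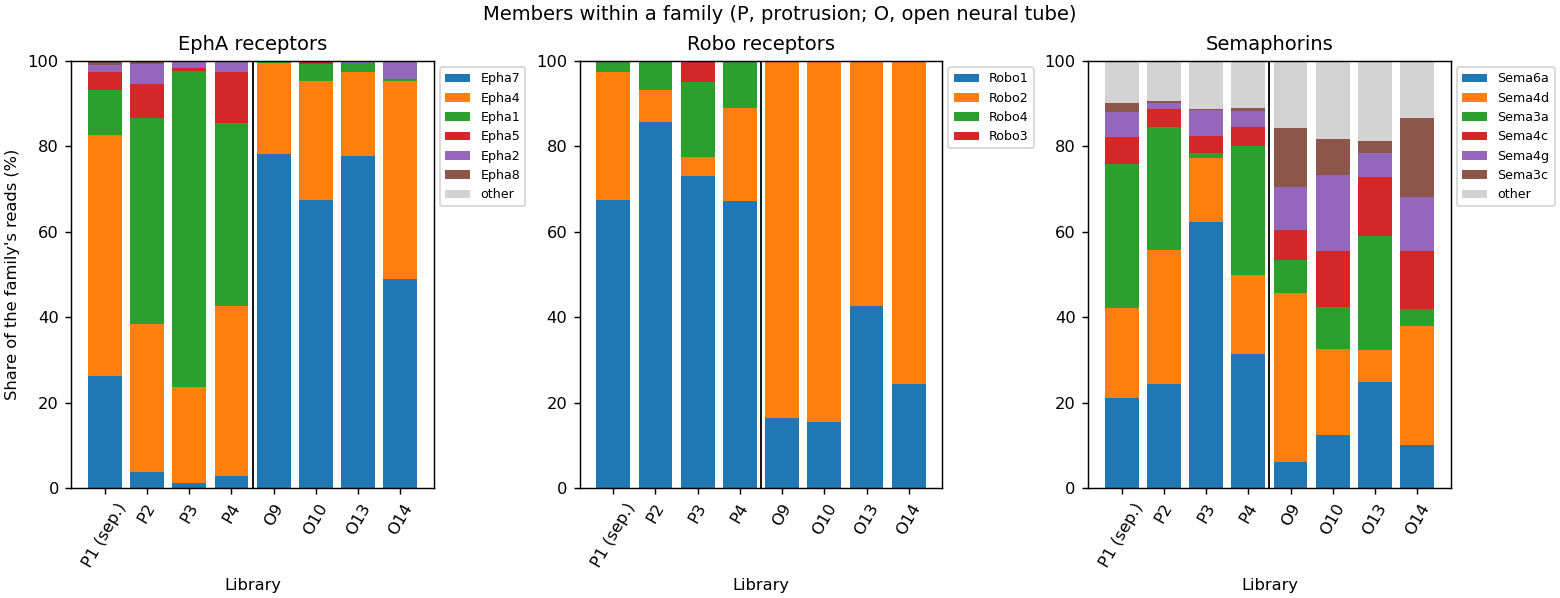
Share of each member, in percent, of all EphA, all Robo and all semaphorin tags of a library, as stacked bars with protrusions 1 to 4 left of open neural tubes 9, 10, 13 and 14. Epha7 made up 49.1% to 78.3% of EphA tags in open neural tubes and Robo1 made up 67.2% to 85.7% of Robo tags in protrusions.

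The semaphorins had the widest spread of levels among the ligands. Of 14 tested members 8 had a log2 fold change above 0, against 53.7% of all genes tested. Their median was 0.28, against 0.08 over all genes tested, and 1 passed the threshold, against 0.607%. Sema6a is a transmembrane semaphorin that binds Plxna2 and Plxna4. It had 96.0, 141, 373 and 207 CPM in protrusions 1 to 4, against 12.3, 24.7, 51.1 and 28.3 CPM in open neural tubes 9, 10, 13 and 14. The lowest protrusion, the separated one, was above the highest open neural tube, number 13. Sema6a rose by 2.67 ± 0.49 on the log2 scale (SE, edgeR adjusted p = 0.0450). Among the 70 members it had the highest mean level in protrusions, 204 CPM, with Neo1 next at 197 CPM. Neo1 lay above Sema6a in protrusions 1, 2 and 4, at 228, 205 and 220 CPM. Sema6a passed in 8 of 15 alternative fits, DESeq2 among them, and with limma-voom its adjusted p was 0.0530. The other class 6 members stayed below 10 CPM in every library, and Sema6c was at 0 in each open neural tube and 0, 4.01, 9.45 and 1.08 CPM in protrusions 1 to 4.

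The class 3 semaphorins are secreted. Sema3a, a repellent that acts through Nrp1 and class A plexins, had 154, 168, 6.30 and 199 CPM in protrusions, against 15.3, 19.2, 54.7 and 10.9 CPM in open neural tubes. Protrusion 3 was lower than every open neural tube, while the other protrusions were higher than all of them, and the log2 fold change of 2.33 ± 0.86 did not pass (SE, edgeR adjusted p = 0.222). Sema3e, a ligand of Plxnd1 that needs no neuropilin, had 19.96, 23.5, 19.3 and 38.2 CPM in protrusions, against 0.0987, 0, 9.79 and 0 CPM in open neural tubes. All protrusions were higher, and open neural tube 13 was the high library of its group. Its log2 fold change was 3.19 ± 1.5 (SE, edgeR adjusted p = 0.348), and without open neural tube 13 Sema3e passed the threshold (edgeR adjusted p = 0.0136). Its receptor Plxnd1 stayed at 1.80 CPM or less in every library.

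Sema3c ran the other way, with 9.65, 2.87, 0.962 and 3.97 CPM in protrusions, against 27.6, 16.6, 5.58 and 51.8 CPM in open neural tubes. The attached protrusions lay below every open neural tube, and the log2 fold change was -2.61 ± 0.85 (SE, edgeR adjusted p = 0.164). Sema3c made up 1.43% to 5.12% of class 3 tags in protrusions and 6.87% to 72.9% in open neural tubes. Sema3b, Sema3d, Sema3f and Sema3g stayed below 10 CPM in every library.

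The class 4 semaphorins span the membrane. Sema4d, a ligand of Plxnb1, had 96.4, 181, 90.2 and 123 CPM in protrusions, against 78.7, 39.7, 15.6 and 78.9 CPM in open neural tubes. The groups did not overlap, although the lowest protrusion and the highest open neural tube lay close to each other. Its log2 fold change was 1.13 ± 0.48 (SE, edgeR adjusted p = 0.291), and the level of Plxnb1 was 53.5 ± 4.23 CPM in the protrusions and 52.3 ± 25.2 CPM in open neural tubes. Sema4c averaged 26.7 ± 3.56 CPM in the protrusions and 26.8 ± 10.1 CPM in open neural tubes, and Sema4g 24.3 ± 11.5 CPM in the protrusions and 25.6 ± 11.7 CPM in open neural tubes. Both therefore differed by far less than their spread.

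In the remaining semaphorin classes levels were low. Sema5b, of a class with thrombospondin repeats, had 4.74, 4.16, 3.76 and 6.25 CPM in protrusions, against 11.8, 15.2, 0 and 22.8 CPM in open neural tubes. Open neural tube 13 had no read and the other open neural tubes lay above every protrusion, with a log2 fold change of -1.46 ± 1.24 (SE, edgeR adjusted p = 0.655). Sema7a, which is lipid-anchored and binds Plxnc1 and integrins, had 0.164, 0.143, 2.36 and 4.33 CPM in the protrusions and 0 CPM in each open neural tube, and was not tested.

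Of the semaphorin receptors 0 of 8 tested members passed by edgeR. An unadjusted edgeR p under 0.05 was reached by 1 of them, Nrp1, and by 15.3% of all genes tested. Nrp1 passed with DESeq2, among 795 genes in all, and no member with limma-voom. Plxna2, a receptor of Sema6a, was the most abundant plexin, with 154, 71.1, 166 and 146 CPM in protrusions, against 335, 145, 153 and 136 CPM in open neural tubes. Apart from the high open neural tube 9 and the low protrusion 2 the libraries lay between 136 and 166 CPM, and the log2 fold change was -0.63 ± 0.35 (SE, edgeR adjusted p = 0.452). Plxnb2, which mice need for cranial neural tube closure, had 4.09, 12.2, 10.15 and 7.69 CPM in protrusions, against 0.889, 3.71, 1.14 and 3.46 CPM in open neural tubes. The groups did not overlap, with a log2 fold change of 1.82 ± 0.92 (SE, edgeR adjusted p = 0.387). Plxna1 averaged 54.4 ± 11.0 CPM in the protrusions and 39.3 ± 15.5 CPM in open neural tubes, and Plxna3 averaged 75.5 ± 22.5 CPM in the protrusions, against 109 ± 36.3 CPM in open neural tubes.

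Nrp1, the coreceptor of Sema3a and of vascular endothelial growth factor, had 27.0, 3.01, 6.04 and 6.73 CPM in protrusions, against 38.2, 6.88, 247 and 43.2 CPM in open neural tubes. The attached protrusions lay below every open neural tube, and the separated protrusion and open neural tube 13 were the high libraries of their groups. These 2 libraries had endothelial marker sums of 34.2 and 164 CPM, against 1.29 to 3.25 CPM in attached protrusions and 7.5 to 45.8 CPM in the other open neural tubes, and their part in the Nrp1 levels was not tested. The log2 fold change was -3.09 ± 1.04 (SE, edgeR adjusted p = 0.177), and it was -1.52 without open neural tube 13 and -4.13 without protrusion 1. Nrp2, the coreceptor of Sema3c and Sema3f among others, averaged 15.7 ± 8.31 CPM in the protrusions and 17.2 ± 15.6 CPM in open neural tubes.

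**Figure D4:**
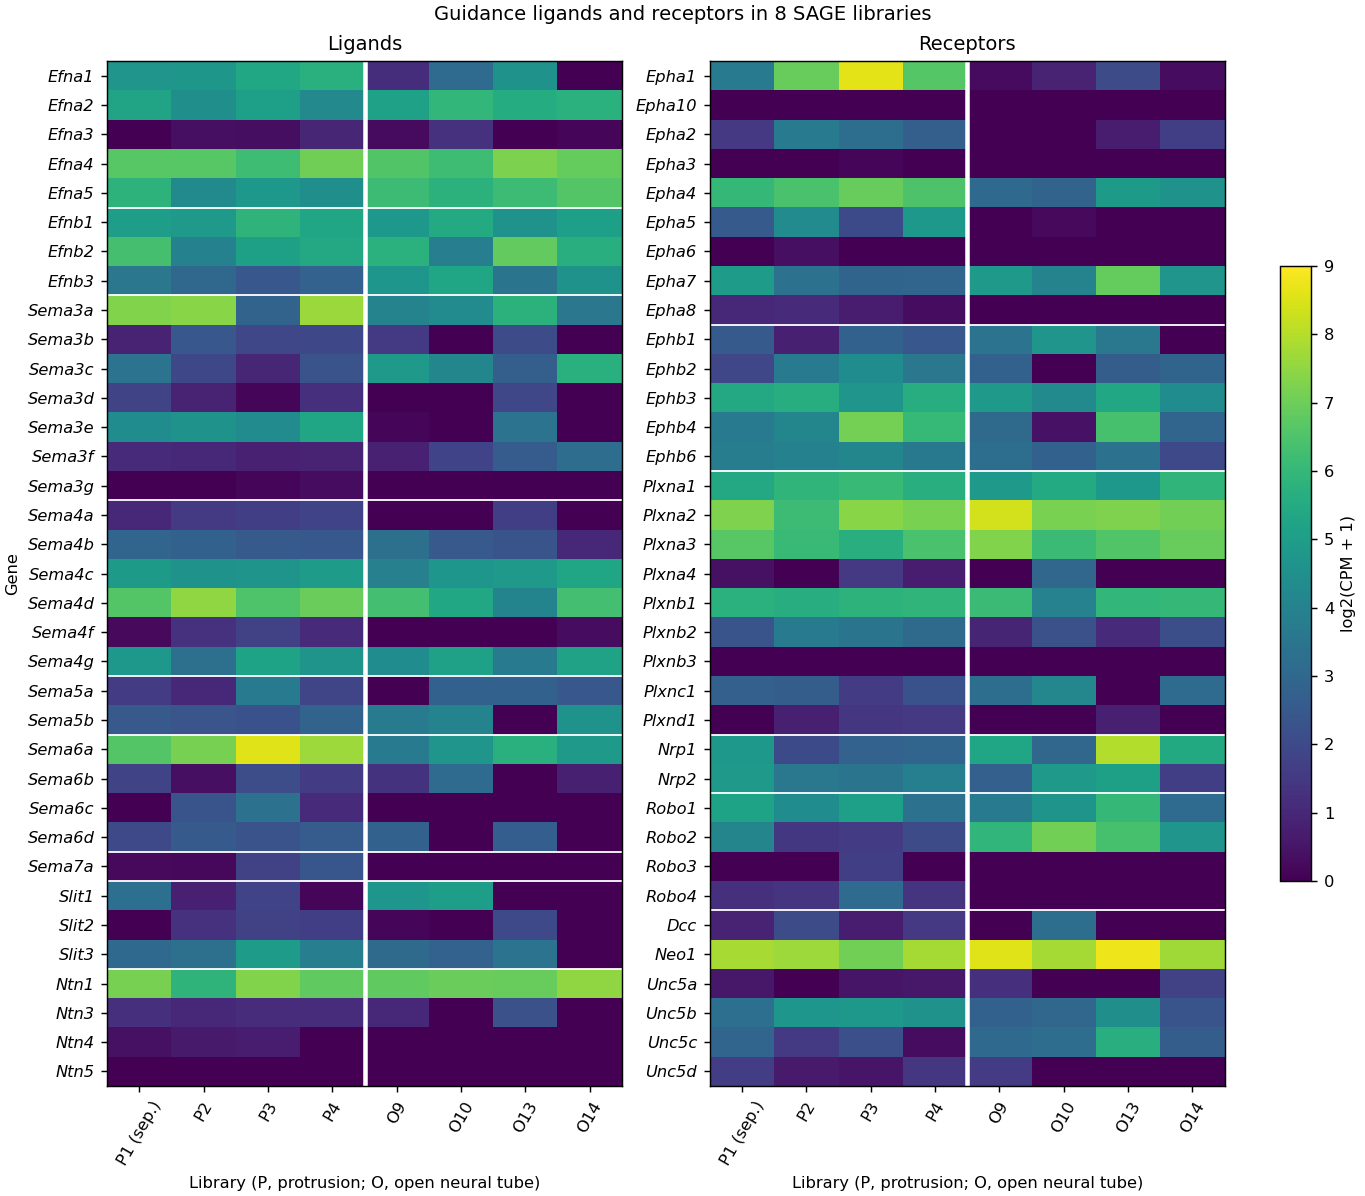
Level of all 70 members in each library as log2(CPM + 1), ligands on the left and receptors on the right, with the columns of protrusions 1 to 4 left of those of open neural tubes 9, 10, 13 and 14. High levels are bright. Neo1, Plxna2 and Ntn1 are bright in all 8 columns, Epha1, Epha5 and Sema3e are brighter in protrusions, and Robo2 is brighter in open neural tubes.

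Robo receptors receive the secreted Slit ligands. Of 3 tested Robos 0 passed by edgeR. An unadjusted edgeR p under 0.05 was reached by 2 of them and by 15.3% of all genes tested. DESeq2 passed Robo2 and Robo4, among 795 genes in all, and limma-voom passed Robo2, among 189. Robo2 had 16.2, 1.72, 2.01 and 3.12 CPM in protrusions, against 59.8, 134, 83.2 and 24.6 CPM in open neural tubes. Every protrusion lay below every open neural tube, the separated protrusion being the highest of the 4. The log2 fold change of -3.78 ± 0.82 lay just outside the threshold (SE, edgeR adjusted p = 0.0709), and Robo2 passed in 5 of 15 alternative fits, among them the one without protrusion 1. Robo1 had 36.2, 19.8, 32.9 and 9.62 CPM in protrusions, against 11.8, 24.5, 62.1 and 7.88 CPM in open neural tubes, with wide overlap and a log2 fold change of -0.23 ± 0.65 (SE, edgeR adjusted p = 0.921). Robo1 thus made up 67.2% to 85.7% of Robo tags in protrusions and 15.5% to 42.7% in open neural tubes, where Robo2 made up 57.3% to 84.5%.

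Robo4, an endothelial member of the family, had 1.31, 1.58, 7.96 and 1.56 CPM in the protrusions and 0 CPM in each open neural tube. Its mean in protrusions was 5.86 times the highest 3-read floor of an open neural tube library, 0.529 CPM (edgeR adjusted p = 0.0849). Protrusion 3 carried most of that mean, and without it the mean was 1.48 CPM, 2.80 times that floor. These ratios are not lower bounds on the fold. Open neural tube libraries had no read for 4.85% to 18.8% of genes averaging 5 to 20 CPM. The endothelial marker sums overlapped, at 1.29 to 34.2 CPM in protrusions and 7.5 to 164 CPM in open neural tubes. Among them Kdr was at 0.327 CPM or less, under the floor, in protrusions and at 0 in open neural tubes. Tek was at 0.350 to 15.2 CPM in protrusions and 0 to 106 CPM in open neural tubes. Pecam1, Cdh5, Tie1 and Emcn reached at most 4.25, 4.74, 9.49 and 0.875 CPM in protrusions. In open neural tubes they reached at most 12.3, 29.4, 14.5 and 1.59 CPM. The part of endothelial cells in the Robo4 levels was not tested.

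Of the 3 Slits 0 passed by edgeR or limma-voom and none had an unadjusted edgeR p under 0.05. DESeq2 passed neither Slit1 nor Slit3 and gave no adjusted p for Slit2. Slit1 had 8.83, 0.717, 2.54 and 0.120 CPM in protrusions, against 25.6, 31.8, 0 and 0 CPM in open neural tubes, where it was present in number 9 and number 10 and had no read in number 13 or number 14 (log2 fold change -2.30 ± 1.89, SE, edgeR adjusted p = 0.639; -3.77 without protrusion 1 and -1.59 without open neural tube 10). Slit3, the most abundant Slit, had 7.53, 8.89, 30.1 and 13.3 CPM in protrusions, against 7.60, 6.17, 9.67 and 0 CPM in open neural tubes, with overlap (log2 fold change 1.21 ± 1.10, SE, edgeR adjusted p = 0.681). Slit2 stayed at 3.0 CPM or less in every library.

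In the netrin system Ntn1 and Neo1 were abundant in both tissues. Of 2 tested netrins and 3 tested netrin receptors 0 passed by edgeR or limma-voom. DESeq2 passed none of them and gave no adjusted p for Unc5c. An unadjusted edgeR p under 0.05 was reached by 2 receptors and by 15.3% of all genes tested. Ntn1, the netrin of the floor plate, had 140, 57.4, 156 and 111 CPM in protrusions, against 110, 123, 119 and 180 CPM in open neural tubes, with a log2 fold change of -0.30 ± 0.29 (SE, edgeR adjusted p = 0.706). Neogenin, coded by Neo1, is a receptor for netrins and repulsive guidance molecules and had the highest mean of all members in open neural tube. It had 228, 205, 134 and 220 CPM in protrusions, against 381, 221, 436 and 210 CPM in open neural tubes. Open neural tubes 9 and 13 stood above the rest and the other 6 libraries lay between 134 and 228 CPM, with a log2 fold change of -0.75 ± 0.31 (SE, edgeR adjusted p = 0.263). Dcc, another netrin receptor, was at 3.15 CPM or less in protrusions and had reads in 1 open neural tube only, number 10, at 8.47 CPM.

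Unc5c, a repulsive netrin receptor, had 6.71, 1.86, 3.59 and 0.240 CPM in protrusions, against 7.5, 8.29, 49.5 and 5.37 CPM in open neural tubes. Open neural tube 13 stood apart, the attached protrusions lay below every open neural tube, and the log2 fold change was -2.63 ± 1.07 (SE, edgeR adjusted p = 0.263), with -1.24 without open neural tube 13 and -3.37 without protrusion 1. Unc5b averaged 21.03 ± 8.27 CPM in the protrusions and 9.54 ± 7.93 CPM in open neural tubes. Unc5a, Unc5d, Ntn3 and Ntn4 stayed at 3.66 CPM or less in every library, and Ntn5, like Plxnb3, had no read in any of them.

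Downstream genes were examined with 2 lists. Of 44 intracellular effectors of guidance receptors 39 were tested and 0 passed by edgeR or limma-voom and 1, Crmp1, by DESeq2, with 4 at an unadjusted p under 0.05 and a median log2 fold change of 0.06. Crmp1, a mediator of semaphorin signalling, averaged 65.1 ± 15.4 CPM in the protrusions and 21.1 ± 15.0 CPM in open neural tubes (SD, n = 4 each; log2 fold change 1.57 ± 0.49, SE, edgeR adjusted p = 0.147). Pak2, a kinase activated by Rac and Cdc42, averaged 86.4 ± 11.9 CPM in the protrusions and 51.7 ± 9.50 CPM in open neural tubes (log2 fold change 0.65 ± 0.23, SE, edgeR adjusted p = 0.196). In both genes the groups did not overlap. Of the 39 tested, 4 were higher and 1 was lower in protrusions without overlap, against 8.84% and 4.55% of all genes tested. An unadjusted edgeR p under 0.05 was reached by 15.3% of all genes tested. The actin-severing protein gene Cfl1, the most abundant of the list, was at 2041 ± 470 CPM in the protrusions, against 2157 ± 287 CPM in open neural tubes.

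Of 19 other extracellular cues, coreceptors and sheddases 18 were found in the files and 11 tested. By edgeR or limma-voom 0 passed, and by DESeq2 1, Rgma. An unadjusted edgeR p under 0.05 was reached by 3, against 15.3% of all genes tested, and the median log2 fold change was -0.33. Rgma, a ligand of neogenin, had 1.96, 14.8, 117 and 7.45 CPM in protrusions, against 2.27, 0.529, 0.721 and 4.78 CPM in open neural tubes. Protrusion 3 carried most of that level and the separated protrusion lay within the range of the open neural tubes (log2 fold change 3.88 ± 1.22, SE, edgeR adjusted p = 0.148). Flrt2, a ligand of Unc5 receptors, averaged 1.91 ± 2.15 CPM in the protrusions and 19.4 ± 19.6 CPM in open neural tubes (log2 fold change -3.45 ± 1.46, SE, edgeR adjusted p = 0.286). Gpc1, a heparan sulfate proteoglycan and the most abundant of the list, averaged 58.3 ± 20.7 CPM in the protrusions and 71.4 ± 15.9 CPM in open neural tubes.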

How the data were processed

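SOLiD SAGE libraries were made from 7 to 12 ng RNA each, per the labels' protocols. The deposited files hold whole-number tag counts per gene symbol, without normalization. Genome build mm9 is named in the submitters' processing notes. How tags were mapped and assigned to genes, what was done with tags matching several places and whether strand was used: not given in the sources used here. No coordinates are given, because the annotation used (GENCODE M21) is of another build. CPM was computed here from the deposited counts and library totals. PCR copies count as reads, so floors and intervals cover counting error only.

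Groups came from the source names. Replicate numbers of open neural tubes came from their titles, and those of protrusions from their listed order. Tests used edgeR 4.0.16 under R 4.3.3 (filterByExpr with minimum count 10, TMM factors, robust 2-sided quasi-likelihood F test) with Benjamini-Hochberg adjustment over all 11036 genes tested. The common dispersion was 0.556, and the fit was checked on simulated data. Standard errors were derived from the F statistic. Alternatives were 2 other scalings, 2 other filters, DESeq2 1.42.0, limma-voom (limma 3.58.1) and libraries left out.

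The members, gene lists and tests were chosen with earlier results of these data known. Values by library are given for members past the threshold, members whose groups do not overlap, and the member with the smallest p and the most abundant one of each family. Epha7, Efna2, Ephb3, Sema6c, Dcc and further members outside that rule were added after their values were seen. From the 2 lists of other pathway genes, the 2 with the smallest p and the most abundant one are named. Marker lists for neural plate, paraxial mesoderm, primitive streak, notochord, surface ectoderm, neural crest, endothelium and erythroid cells were summed by library.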

Additional observations from a re-analysis of the deposited data

Results flagged for a closer look

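In 91 groups of 4 libraries, made of named members and family sums in each tissue, 15 held a library whose gap to its nearest neighbour was a larger share of the group's range than Dixon's 95% critical value. For normally distributed values chance flags about 1 in 20 such groups. Levels with zeros, such as those of Epha5, need not follow that distribution, so this rate may not apply here. Family sums share members, so the flags are not independent. Open neural tube 13 was the high library in 6 of them. It had 83.2 CPM of Ephb4, 9.79 CPM of Sema3e, 247 CPM of Nrp1 and 49.5 CPM of Unc5c. It also had 298 CPM of summed Eph receptors and 281 CPM of summed neuropilins. Protrusion 1, the separated one, was the high protrusion for Nrp1 at 27.0 CPM, for Robo2 at 16.2 CPM and for summed neuropilins at 55.0 CPM. Among the other open neural tubes, Epha5 was highest in number 10 at 0.176 CPM, which is 1 read, Plxna2 was highest in number 9 at 335 CPM, and the summed semaphorins were highest in number 14 at 282 CPM. Among attached protrusions, Robo4 was highest in number 3 at 7.96 CPM, the summed netrin receptors were lowest in number 3 at 166 CPM, and the summed plexins were lowest in number 2 at 263 CPM.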

How the results depend on the processing

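Of the members tested, 2 passed the threshold in the edgeR fit. With DESeq2 11 members passed, and with both protrusion 1 and open neural tube 13 left out of edgeR 5 passed. Leaving out each library in turn gave 0 to 5: 5 without protrusion 1, 3 without open neural tube 13, and 0 without any of the other 6 libraries. RLE factors, upper-quartile factors, omitting the low-count filter, requiring 20 CPM in 4 libraries and limma-voom gave 3 each, not always the same members: Epha1 was not tested with the 20 CPM filter and was lost without a filter (adjusted p = 0.108) and with limma-voom (0.301), and Sema6a only with limma-voom (0.0530) among these 5. Over all genes, 67 passed in edgeR, 795 with DESeq2, 189 with limma-voom, 157 of 5590 with the 20 CPM filter, 103 with upper-quartile factors, 89 with RLE factors, 82 without a filter and 211 without protrusion 1 and open neural tube 13. Leaving out 1 library gave 1 to 172. The median log2 fold change of all genes was 0.47 without a filter and 0.35 with limma-voom. The sign of a log2 fold change reversed for Efna4 without 1 library (range -0.34 to 0.0602, with 0.0202 without protrusion 3 and 0.0602 without open neural tube 13) and without both protrusion 1 and open neural tube 13 (0.0301), for Efnb2 without 1 library (range -1.06 to 0.0844, the highest without open neural tube 13) and for Sema5b with limma-voom (1.12). None of these 3 was called, and the cause was not tested. Of the other fold changes 332 kept direction and side of the threshold, 25 newly passed it and 15 no longer passed it. Means of family sums moved by over 1.5 times without open neural tube 13 in open neural tubes, for Eph receptors (84.7 CPM, against 138 with it), EphA (36.4 against 64.4), EphB (48.3 against 73.6) and neuropilins (41.2 against 101), and without protrusion 1 in protrusions for neuropilins (16.9 against 26.4). No paired analysis was possible because the 2 groups share no replicate numbers. Small RNA inputs and zeros in open neural tubes limit what can be read from members below a few CPM.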

Other observations

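Marker lists of other cell types gave further values beside the guidance genes. Neural crest markers, 5 of 6 of them in the files, summed to 24.4 to 37.1 CPM in protrusions and 28.3 to 79.6 CPM in open neural tubes, and Foxd3 was at 0 in every library except protrusion 1, at 0.327 CPM. Surface ectoderm markers, 5 of 6 in the files, summed to 62.3 to 165 CPM in protrusions and 32.8 to 281 CPM in open neural tubes. Notochord and floor plate markers summed to 9.98 to 345 CPM in protrusions and 12.0 to 88.9 CPM in open neural tubes. Erythroid markers summed to 0.430 to 46.2 CPM in protrusions and 1.06 to 1010 CPM in open neural tubes, with the high values in open neural tubes 13 and 14 (920 and 1010 CPM).

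At least 3 reads in all 4 libraries of a group were held by 49 of the 70 members in protrusions and by 31 in open neural tubes. Over all 18121 genes with a read these numbers were 11409 in protrusions and 7512 in open neural tubes, a ratio of 1.52, against 1.58 for the members. In 19 members all protrusions but not all open neural tubes reached 3 reads, and in 1 member the converse held.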
